A study of Mus musculus with 2 samples.

Results

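Replication-dependent histone genes were compared between 2 sorted populations of mouse retinal microglia. The genes were chosen by their names: the protein-coding genes listed in the count table as H1f1 to H1f5, or as a numbered H2ac, H2bc, H3c or H4c gene. This gave 45 of the 13549 genes listed. They comprised 5 genes of the linker histone H1, 10 of H2A, 12 of H2B, 9 of H3 and 9 of H4.

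Microglia are macrophages that live in nervous tissue, and these came from retinas of CD11c-Cre-gfp;Rosa-TDTom mice at postnatal day 5. In such animals Cre recombinase and GFP are driven by the CD11c promoter (gene *Itgax*), and Cre switches on a lasting TdTomato reporter. Cd11c-active cells (GFP+TdTom+, 4041 cells) carried both colours, and Cd11c-lineage cells (GFP-TdTom+, 5441 cells) carried TdTomato without GFP. Per the labels, both populations were sorted from 8 retinas, with 4 female and 4 male, and each was sequenced as 1 library. There was therefore no replicate check, no p-value is given, and every difference below is one between these 2 libraries and not between the conditions.

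Histones are the proteins around which DNA is wound: H2A, H2B, H3 and H4 form the nucleosome core, and H1 binds the linker DNA between cores. The genes described here supply new histones while DNA is copied, so their mRNA is abundant in S phase and scarce outside it. Unlike other mRNAs they end in a conserved stem-loop and not in a poly(A) tail. The stem-loop is bound by the protein Slbp and cut with the help of the U7 small nuclear RNA. The libraries were made from total RNA after depletion of ribosomal RNA, a method that does not depend on a poly(A) tail.

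The stem-loops of the genes are shown because they mark this kind of mRNA and vary by class. GENCODE transcript models (release M21) were found for all 45 genes by gene identifier. In 34 of them the model went at least 16 bases past the coding part, and 31 of the 34 (91.2%) held a stem of 6 paired bases beginning with GG around a loop of 4 bases there. The same shape was found in 2.86% of 20867 other protein-coding genes. The models of the other 11 genes end at or near the stop codon, so these models cannot hold it. Capitals mark the stem-loop, written 5′ to 3′ with 5 bases on either side.

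H1f4: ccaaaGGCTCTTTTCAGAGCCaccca
H2ac8: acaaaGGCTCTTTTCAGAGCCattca
H2bc12: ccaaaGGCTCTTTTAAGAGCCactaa
H3c6: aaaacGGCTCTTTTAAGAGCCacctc
H4c8: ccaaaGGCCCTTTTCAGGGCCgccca
H4c2: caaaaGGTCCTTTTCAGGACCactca

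The form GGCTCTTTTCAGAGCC was held by 16 genes of the H1, H2A, H2B and H3 classes. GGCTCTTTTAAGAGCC was held by 5 genes, of H2B and H3. All H4 genes with a stem-loop had another stem, as in H4c8 and H4c2, and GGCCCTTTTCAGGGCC was the most frequent form there with 4 genes.

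The count table held 12943998 reads for Cd11c-active and 13402625 for Cd11c-lineage. Each ratio puts Cd11c-active over Cd11c-lineage with libraries scaled by TMM, a trimmed mean of log ratios, and CPM values use the same scaled library sizes. The scaling raised each log2 ratio by 0.14 against library totals. The log2 ratios of genes scatter far more than independent reads alone would give. Real differences between the populations and scatter of reads both enter this spread and cannot be told apart with 1 library a group. In 1978 genes with 800 to 1599 reads the variance of the log2 ratio was 80.3 times the counting variance, with a robust SD of 0.79. Each ratio is therefore given with a 95% counting interval and with a widened interval, for which reads were divided by 80.3. A count of 0 allows up to 3 reads by counting error.

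As one sum, the 45 genes had 14982 reads against 5422. This was 0.116% of the first library (Wilson 95% interval 0.114 to 0.118) and 0.0405% of the second (0.0394 to 0.0415). In scaled units the sum was 1213 CPM against 386 CPM, 3.14-fold higher in Cd11c-active. The log2 ratio was 1.65, with a counting interval of 1.61 to 1.70 and a widened interval of 1.24 to 2.07. In bulk samples, fewer cells of a kind and less RNA per cell cannot be told apart. The sum without *H1f2*, the gene with the most reads, gave 1.96, and the sum over the 23 genes with reads in both libraries gave 1.18. Endothelial markers were higher in Cd11c-active together with the histone genes. All 8 were at least 1 higher on the log2 scale, as were 23.3% of all genes with at least 20 reads, with 646 against 73.7 CPM in sum (log2 ratio 3.13, widened 2.28 to 4.07), and *Cldn5*, *Esam*, *Flt1*, *Tek* and *Plvap* had 0 reads in Cd11c-lineage. Their part in the histone result was not tested.

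The core histones and the linker histones differed in the size of this gap. The 40 core genes had 8574 against 1619 reads, a log2 ratio of 2.59 (counting 2.51 to 2.67, widened 1.91 to 3.37) and 6.03-fold higher. The 5 H1 genes had 6408 against 3803 reads, a log2 ratio of 0.94 (counting 0.88 to 1.0, widened 0.42 to 1.51) and 1.92-fold higher. The widened intervals of core and linker genes did not overlap over all genes, but they did over genes with reads in both libraries. There the 18 core genes had 4319 against 1581 reads, a log2 ratio of 1.64 (counting 1.55 to 1.72, widened 0.86 to 2.44). By class these genes gave 1.39 for H2A, 1.11 for H2B, 0.96 for H3 and 2.74 for H4, beside 0.94 for H1. H1 took 42.8% of all reads of the 45 genes in Cd11c-active (Wilson 95% interval 42.0 to 43.6) and 70.1% in Cd11c-lineage (68.9 to 71.3). H2A made up 12.7% (12.2 to 13.2) against 3.26% (2.82 to 3.77), and H4 17.8% (17.2 to 18.4) against 6.29% (5.67 to 6.97). H2B made up 14.9% against 10.4%, and H3 11.9% against 9.89%.

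**Figure D1:**
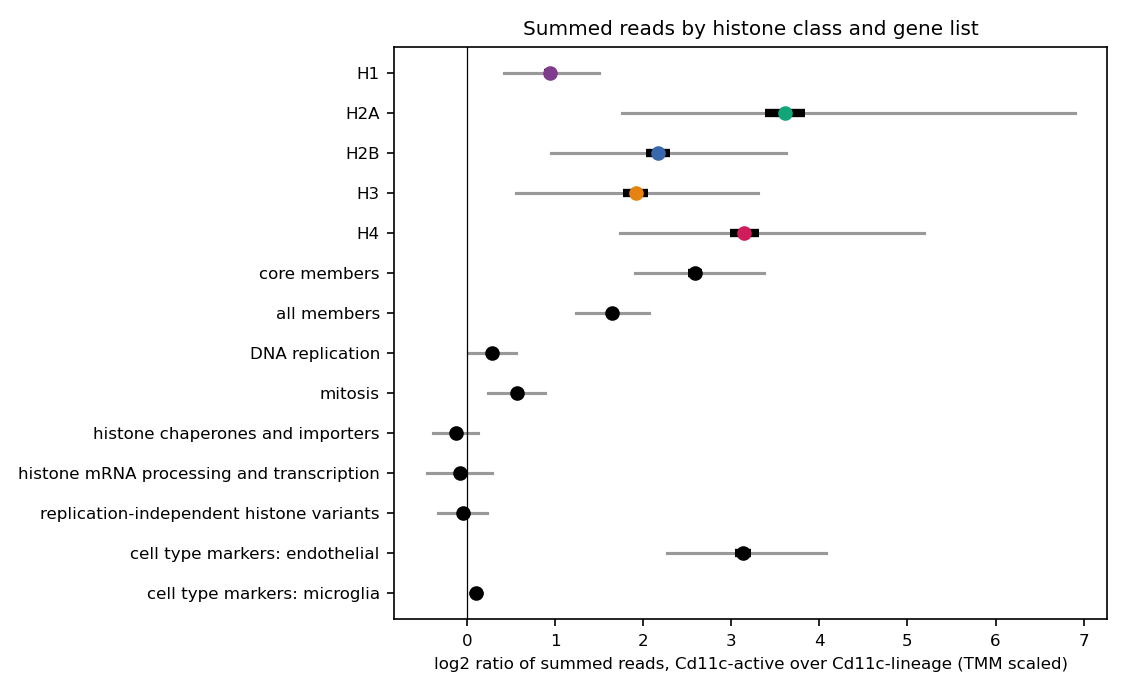
Log2 ratio of summed reads (Cd11c-active over Cd11c-lineage, TMM scaled) for each histone class, for all members and for fixed gene lists. Points are the ratios, thick bars the 95% counting intervals and thin bars the widened intervals; H1 lies at 0.94, the core histones together at 2.59 and the replication-independent variants at -0.04.

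Gene by gene, 44 of the 45 had at least 20 reads over both libraries. Of these, 35 were higher in Cd11c-active by at least 1 on the log2 scale, where 23.3% of all 13037 genes with as many reads were. Another 2 were lower by as much, where 21.6% of all genes were. The other 7 lay between these limits. The median log2 ratio of the 44 genes was 3.24, or 2.99 with counts of 0 set to 3, against 0.01 over all genes with at least 20 reads. *H2bc14*, with 14 reads against 0, was below the minimum.

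Because genes with few reads scatter most, the counts are given by read range. From 20 to 99 reads, 10 of 11 histone genes were at least 1 higher on the log2 scale, against 48.6% of all genes in that range. Between 100 and 399 reads the numbers were 16 of 20 against 30.8%. From 400 to 999 reads they were 7 of 9 against 21.0%, and at 1000 reads or more 2 of 4 against 5.43%. The histone share was thus above the background in each of the 4 ranges.

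**Figure D2:**
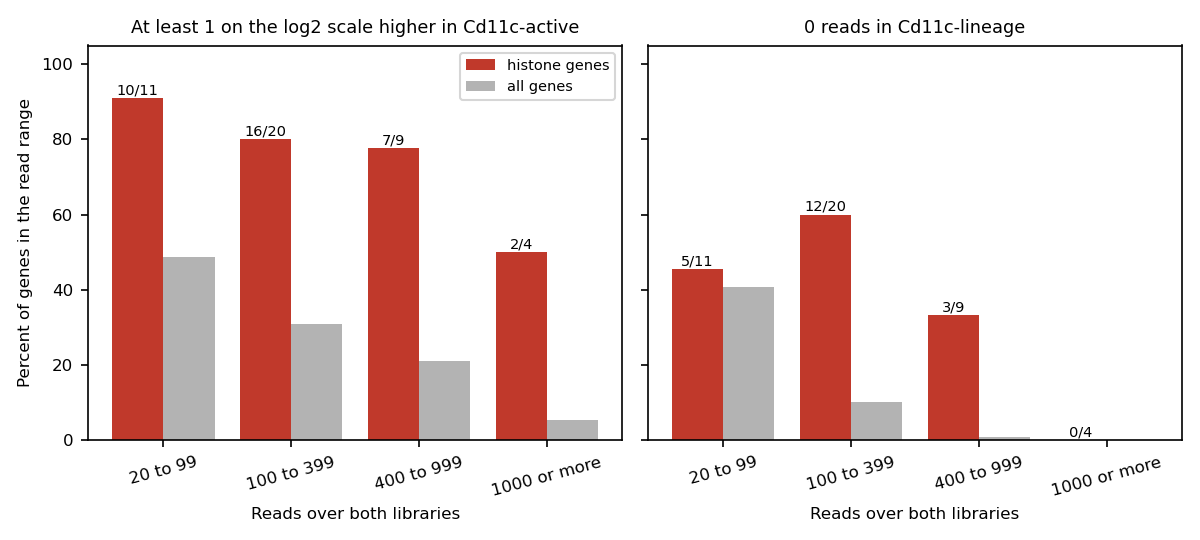
Percent of genes at least 1 higher on the log2 scale in Cd11c-active (left) and percent with 0 reads in Cd11c-lineage (right), by reads over both libraries. Red bars are the histone genes with their numbers above, grey bars all genes; the red bars stand above the grey ones in every range on the left, and from 20 to 99 reads the bars on the right are of like height.

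A count of 0 in Cd11c-lineage was found for 21 of the 45 genes, 20 of them with at least 20 reads, where 10.6% of all genes had it. A count of 0 in Cd11c-active was found for 1 gene, *H2ac21*, where 10.7% of all genes had it. The 21 genes had 14 to 759 reads in Cd11c-active with a median of 147, and 4255 in sum. The widened interval lay above 0 for 4 of the 21, and for the other 17 it reached below 0 or could not be had, so singly these 17 do not stand apart from the scatter. Of the 23 genes with reads in both libraries, 21 had more CPM in Cd11c-active, 15 were at least 1 higher on the log2 scale, and 1, *H2bc7*, was at least 1 lower. Of all 10256 genes with at least 20 reads and with reads in both libraries, 16.04% were as much higher and 13.9% as much lower. A ratio above 0 was held by 6549 of all 13037 genes with at least 20 reads.

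The widened interval lay above 0 for 7 of the 44 genes, against 2.17% of all genes. These were *H1f4*, *H1f5*, *H2ac15*, *H2bc6*, *H3c6*, *H4c8* and *H4c12*. With library totals in place of TMM it lay above 0 for 5, against 1.45% of all genes, and *H1f4* and *H2bc6* were the ones lost. It lay below 0 for 0 of the 44, against 0.920% of all genes. For the remaining 37 it held 0, or too few reads were left to give one.

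**Figure D3:**
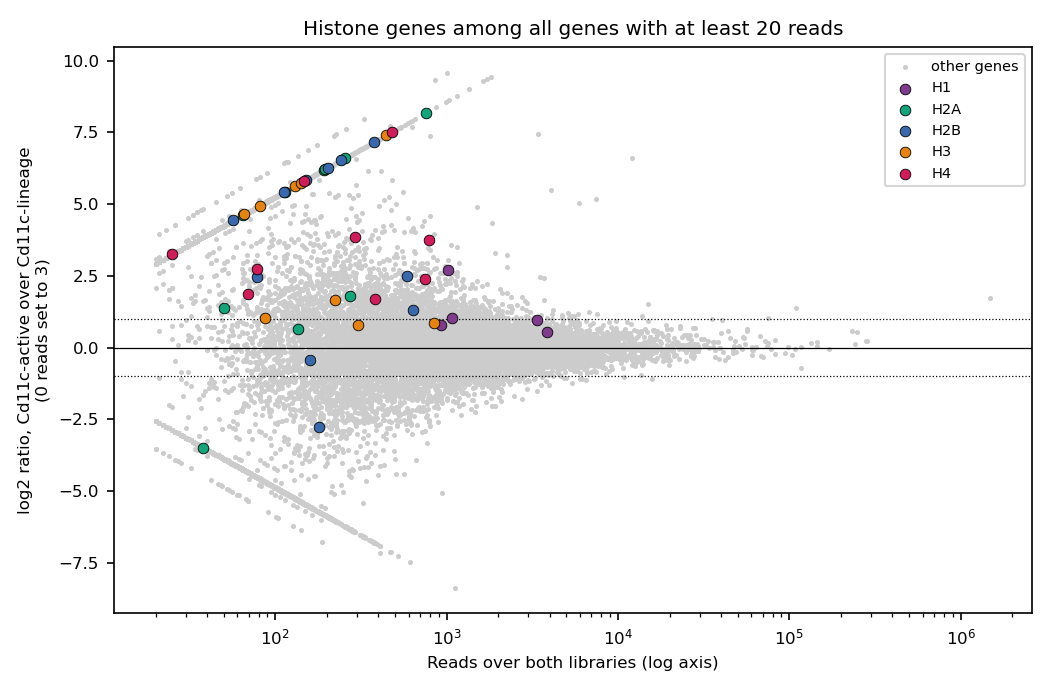
Log2 ratio (Cd11c-active over Cd11c-lineage, counts of 0 set to 3) against reads over both libraries on a log axis, for all genes with at least 20 reads (grey) and for the histone genes coloured by class. Dotted lines mark the fold limit of 1 in either direction; 35 histone genes lie at or above the upper line and 2 below the lower one, and the dense upper diagonal holds the genes with 0 reads in Cd11c-lineage.

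The 5 H1 genes encode linker histone subtypes that bind where DNA enters and leaves the nucleosome. All 5 were detected in both libraries, with 921 to 3831 reads over both. All 5 had more CPM in Cd11c-active, where 6549 of all 13037 genes with at least 20 reads had a ratio above 0. *H1f2* (ENSMUSG00000036181) had 2161 reads against 1670, or 175 against 119 CPM. Its log2 ratio of 0.56 (counting 0.47 to 0.65) was the smallest of the class, and its widened interval of -0.33 to 1.44 held 0. *H1f4* (ENSMUSG00000051627) had 2136 reads against 1238, a log2 ratio of 0.97 (counting 0.87 to 1.08, widened 0.07 to 2.05). *H1f3* had 689 against 382 reads and a ratio of 1.04 (widened -0.70 to 2.96), and *H1f1* 557 against 364 and 0.80 (widened -1.20 to 2.67).

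*H1f5* (ENSMUSG00000058773) was apart from the other H1 genes. Its counts were 865 against 149 reads, or 70.1 against 10.6 CPM. The log2 ratio of 2.72 had a counting interval of 2.47 to 2.98 and a widened one of 0.45 to 5.86. The counting interval lay above those of the other 4 H1 genes, while the widened intervals of all 5 overlapped.

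Summed over all its genes, H2A had the widest gap of the classes: 1900 reads against 177, a log2 ratio of 3.61 (counting 3.39 to 3.84, widened 1.76 to 6.90). This class also leaned on a single gene. *H2ac15* (ENSMUSG00000063021) had 759 reads against 0, 288-fold higher with 0 set to 3 reads, and the counting lower end of its log2 ratio was 7.87. Over the widened scatter the lower end of its log2 ratio was 1.17. For *H2ac15* the log2 fold change in the authors' deposited table is 12.59, a value that rests on how a count of 0 is handled. Without *H2ac15* the H2A sum gave a log2 ratio of 2.87, and over the H2A genes with reads in both libraries 1.39. H4 had the wider gap in both settings, at 2.98 and 2.74.

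Among the other H2A genes, *H2ac10* had 254 reads against 0, 96.4-fold higher with 0 set to 3 reads. The lower end of its log2 ratio was 6.28 by counting and -1.09 when widened. *H2ac20*, from the smaller histone cluster on chromosome 3, had 207 against 67 reads, for a log2 ratio of 1.81 (counting 1.41 to 2.23, widened -1.87 to 7.49). *H2ac11*, *H2ac6*, *H2ac8* and *H2ac22* had 196, 192, 114 and 65 reads in Cd11c-active, each against 0. *H2ac4* was the closest to equal with 78 against 57 reads, and *H2ac13* had 35 against 15. *H2ac21* went the other way, with 0 against 38 reads, 11.1-fold lower with 0 set to 3 reads. Its counting upper end was -3.11, and it had too few reads for a widened interval.

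The 12 H2B genes summed to 2232 against 565 reads, a log2 ratio of 2.17 (counting 2.03 to 2.30, widened 0.96 to 3.63). Over the H2B genes with reads in both libraries it was 1.11. *H2bc18* had 438 against 199 reads, for a log2 ratio of 1.32 (counting 1.08 to 1.57, widened -1.10 to 4.90). *H2bc4* had 487 against 98 and a ratio of 2.49 (counting 2.18 to 2.83, widened -0.27 to 8.30). *H2bc6*, with 378 against 0, was 143-fold higher with 0 set to 3 reads. The lower end of its log2 ratio was 6.86 by counting and 0.06 when widened. Thus 1 of these 3 stood clear of the scatter, and only just.

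H2B was the class with the most exceptions. *H2bc7* had 20 against 159 reads, a log2 ratio of -2.77 (counting -3.55 to -2.13), and its widened interval reached up to 2.60. *H2bc3* had 63 against 96 and a ratio of -0.42 (counting -0.90 to 0.05). These 2 and *H2ac21* were the 3 genes of the 44 with a ratio below 0. *H2bc12*, *H2bc8*, *H2bc15*, *H2bc9* and *H2bc11* had 243, 204, 151, 112 and 57 reads against 0. *H2bc13* had 65 against 13.

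The 9 H3 genes had 1779 against 536 reads, a log2 ratio of 1.92 (counting 1.78 to 2.06, widened 0.56 to 3.31). All 9 had more CPM in Cd11c-active, where 6549 of all 13037 genes with at least 20 reads had a ratio above 0. *H3c7* had 515 against 325 reads and a ratio of 0.85 (counting 0.65 to 1.06, widened -1.30 to 3.04). *H3c6*, with 442 against 0, was 168-fold higher with 0 set to 3 reads. The lower end of its log2 ratio was 7.09 by counting and 0.42 when widened. *H3c13* had 182 against 121 and a ratio of 0.77 (counting 0.44 to 1.12, widened -3.60 to 3.97). The remaining 6 had 66 to 224 reads over both libraries, and *H3c8*, *H3c1*, *H3c11* and *H3c4* among them had 0 in Cd11c-lineage. Without *H3c7* the H3 sum gave 2.77, and over the H3 genes with reads in both libraries 0.96.

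In H4 all 9 genes were past the fold upwards, beside 23.3% of all genes, and the sum was 2663 against 341 reads. Its log2 ratio was 3.15 (counting 2.99 to 3.32, widened 1.74 to 5.19), or 8.88-fold higher in Cd11c-active. *H4c8* (ENSMUSG00000060981) had 724 against 61 reads, 58.6 against 4.34 CPM, and a ratio of 3.74 (counting 3.38 to 4.16, widened 0.51 to 8.81). *H4c4* had 611 against 133 and a ratio of 2.38 (counting 2.11 to 2.67, widened -0.14 to 5.46). *H4c12*, with 483 against 0, was 183-fold higher with 0 set to 3 reads. The lower end of its log2 ratio was 7.21 by counting and 0.42 when widened.

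The H4 gap did not rest on genes with 0 reads. The 6 H4 genes with reads in both libraries gave 2.74, and the sum without *H4c8* gave 2.98. *H4c6* had 271 against 21 reads and *H4c3* 282 against 99, while *H4c9* and *H4c1* had 67 against 11 and 53 against 16. *H4c2* and *H4c14* had 147 and 25 reads, each against 0.

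**Figure D4:**
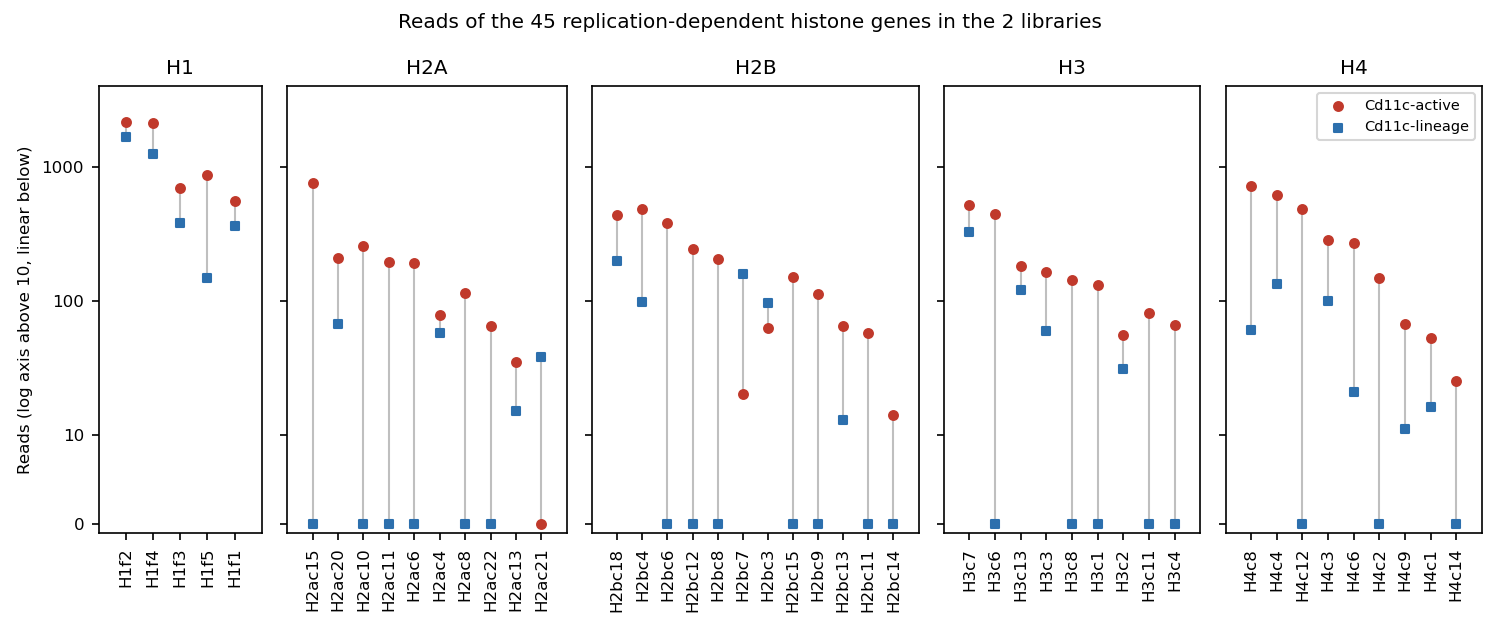
Reads of each of the 45 genes in Cd11c-active (red circles) and Cd11c-lineage (blue squares) by class, on an axis that is logarithmic above 10 and linear below. In H1 both libraries lie between 149 and 2161 reads; in the core classes 21 blue squares lie at 0, and *H2ac21*, *H2bc7* and *H2bc3* are the genes with the blue square on top.

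In the genome these genes stand in clusters, and H2A and H2B genes often sit head to head with a shared promoter. RefSeq (GRCm38.p6) places 40 of the 45 genes on chromosome 13 and 5 on chromosome 3, matched by symbol. The chromosome 13 genes had 14130 against 4997 reads in sum, a log2 ratio of 1.69, and 20 of them had 0 reads in Cd11c-lineage. The chromosome 3 genes, *H2ac20*, *H2ac21*, *H2bc18*, *H3c13* and *H4c14*, had 852 against 425 reads, a log2 ratio of 1.19, and 1 of them, *H4c14*, had 0 reads there. Promoters were matched for 41 of the 45, all but *H2bc4*, *H3c1*, *H3c7* and *H4c14*.

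**Figure D5:**
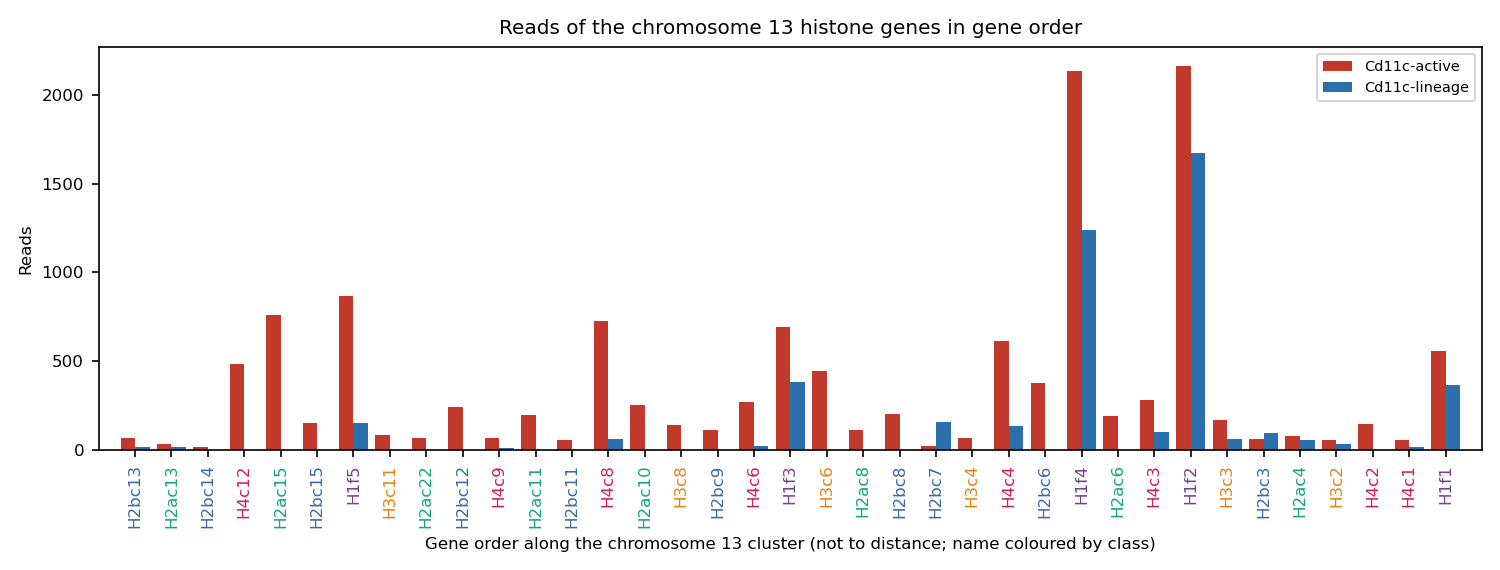
Reads of the 37 chromosome 13 histone genes with a matched promoter in Cd11c-active (red bars) and Cd11c-lineage (blue bars), in gene order and not to distance, with names coloured by class. The tallest bars belong to *H1f2* and *H1f4* in both libraries; genes without a blue bar are spread along the whole order.

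Starts of 4 such pairs lay 164 to 249 bases apart, all of them an H2A with an H2B gene. In all 4 pairs both genes had more CPM in Cd11c-active, and in 3 pairs both had 0 reads in Cd11c-lineage. Of single genes with at least 20 reads, 6549 of 13037 had a ratio above 0 and 10.6% had 0 reads in Cd11c-lineage. Among the 45 histone genes 21 had 0 reads there, so these counts do not set the pairs apart from the other histone genes. *H2ac15* and *H2bc15* had 759 and 151 reads against 0 and 0, *H2ac11* and *H2bc11* 196 and 57, and *H2ac8* and *H2bc8* 114 and 204. *H2bc13* and *H2ac13* had 65 and 35 reads against 13 and 15.

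The stretches between the starts of 2 of these pairs, and 150 bases before the start of an H1 and of 2 H4 genes, are shown because genes of the classes differ there. The motifs searched on both strands in the 300 bases from 250 before to 50 after each start were the CCAAT box, the TATA box TATAAA, the octamer ATTTGCAT known from H2B promoters, and AAACACA, known from H1 promoters. Matches are in capitals, also where the reverse complement is the one present.

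H2ac8 to H2bc8, chr13:23571221-23571399, plus strand: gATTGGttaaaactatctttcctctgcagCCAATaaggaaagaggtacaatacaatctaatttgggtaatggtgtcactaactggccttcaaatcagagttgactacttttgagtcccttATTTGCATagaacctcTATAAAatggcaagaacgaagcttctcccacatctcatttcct
H2ac15 to H2bc15, chr13:21753913-21754075, plus strand: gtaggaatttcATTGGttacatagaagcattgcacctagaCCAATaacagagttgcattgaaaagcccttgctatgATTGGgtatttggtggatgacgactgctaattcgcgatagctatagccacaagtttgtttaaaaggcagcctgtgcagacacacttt
H1f4, chr13:23622559-23622708, minus strand: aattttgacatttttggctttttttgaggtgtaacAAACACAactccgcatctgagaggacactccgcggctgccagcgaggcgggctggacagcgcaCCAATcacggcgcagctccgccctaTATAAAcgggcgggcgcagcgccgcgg
H4c12, chr13:21750554-21750703, minus strand: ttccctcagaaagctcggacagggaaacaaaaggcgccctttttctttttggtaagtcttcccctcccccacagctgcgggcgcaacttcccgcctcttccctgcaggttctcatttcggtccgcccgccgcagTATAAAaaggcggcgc
H4c8, chr13:23530894-23531043, plus strand: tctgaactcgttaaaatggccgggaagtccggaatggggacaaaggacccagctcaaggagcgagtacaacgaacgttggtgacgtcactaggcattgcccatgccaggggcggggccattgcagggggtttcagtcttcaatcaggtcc

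CCAAT was present in 36 of the 41 promoters (87.8%), against 37.4% of all 32544 RefSeq promoters, and in 3 of the 8 H4 promoters. TATAAA was present in 24 of 41 (58.5%) against 13.6%. The octamer was present in 6 of 11 H2B and 4 of 10 H2A promoters, against 1.75% of all, and the H1 box in 4 of 5 H1 promoters against 7.20%. A match is a description of these letters only, and windows of paired genes overlap. *H4c8* and *H4c12* differed in the letters found, 0 motifs against TATAAA, and both were past the fold.

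Near-identical copies limit what can be said of single genes. Each model was broken into all words of 50 bases, and the share found in no other gene's transcripts was taken. It ranged from 9.88% in *H2ac13* to 100% in *H1f5* and *H1f1*, with a median of 53.0%, and 19 of the 45 genes were under 50%. The median was 97.7% for H1, 60.5% for H4, 48.3% for H2B, 45.9% for H3 and 44.8% for H2A. It was 45.9% in the 21 genes with 0 reads in Cd11c-lineage and 59.9% in the 23 with reads in both. How the authors' counting treated reads with several places is not given in the sources used here, and its part in these counts was not tested. Of the 26 genes with at least 50% of unique words, *H2bc14* was below the minimum of reads. Among the others 19 were past the fold upwards and 1 downwards, beside 23.3% and 21.6% of all genes. The restricted sum gave a log2 ratio of 1.39.

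Most replication-independent histone genes make polyadenylated mRNA through the cell cycle, and as a list they give the nearest comparison. The 11 of 11 listed had 16485 against 19341 reads, a log2 ratio of -0.04 (counting -0.07 to -0.01, widened -0.32 to 0.23) whose widened interval did not overlap that of the 45 genes. *H3f3b* alone held most of these reads, and the median log2 ratio of the 11 was 0.15. *H3f3b* and *H3f3a*, which encode the replacement variant H3.3, had 8080 against 11443 and 2259 against 2325 reads, log2 ratios of -0.32 (widened -0.70 to 0.06) and 0.15 (widened -0.67 to 0.94). *H2az1*, which encodes H2A.Z, had 1786 against 1540 and 0.40 (widened -0.56 to 1.36). Past the fold were 4 of 11 upwards and 1 downwards, beside 23.3% and 21.6% of all genes. The former were *H2ax*, *Cenpa*, *H2az2* and *H1f10*, and the latter was *Macroh2a2*, named after their values were seen. *H2ax*, whose mRNA also exists in a stem-loop form, had 675 against 277 reads and a ratio of 1.47 (widened -0.46 to 4.15). *Cenpa*, the centromeric H3 variant, had 454 against 18 and 4.81, with a widened lower end of 0.42.

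Factors that transcribe and process histone mRNA were near equal in sum. All 16 listed were measured, with 9094 against 10925 reads and a log2 ratio of -0.08 (counting -0.12 to -0.04, widened -0.45 to 0.29). The median was -0.23, with 1 gene of 16 past the fold in each direction, beside 23.3% and 21.6% of all genes: *Lsm11* with 132 against 0 reads and *Lsm10* with 0 against 48, both parts of the U7 particle. *Srrt* and *Cpsf3*, the cap-linked factor and the cleavage enzyme, had 1626 against 1934 and 978 against 1301 reads, ratios of -0.06 and -0.22. *Fip1l1* and *Cstf2*, parts of the 3′ end machinery, were the highest at 0.76 (1060 against 713 reads) and the lowest at -0.67 (433 against 786) among those with at least 1000 reads. *Slbp*, which binds the stem-loop, and *Npat*, a coactivator of histone genes, are named for their role, after their values were seen. They had 324 against 552 and 347 against 514 reads, ratios of -0.58 (widened -2.84 to 1.36) and -0.38 (widened -2.67 to 1.68).

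Histone chaperones, which carry new histones to DNA, had 19127 against 23780 reads over 18 genes, a log2 ratio of -0.13 (counting -0.16 to -0.10, widened -0.38 to 0.12). Their median was 0.01 and 2 of 18 genes were past the fold in each direction (23.3% upwards and 21.6% downwards of all genes), *Daxx* and *Chaf1b* upwards and *Nasp* and *Hat1* downwards. *Nasp*, a chaperone of H3 and H1, was the lowest with at least 1000 reads: 343 against 906 reads and a ratio of -1.21 (counting -1.40 to -1.03, widened -3.38 to 0.48). *Atrx*, the partner of Daxx in depositing H3.3, had 2132 against 4501 and -0.89 (widened -1.59 to -0.18), *Rbbp4*, a histone-binding subunit of CAF-1, 2885 against 3381 and -0.04, and *Ssrp1*, a subunit of FACT, 2302 against 1446 and 0.86 (widened -0.02 to 1.81).

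Genes of DNA replication differed less in sum than the histone genes. The 37 listed had 18421 against 17195 reads, a log2 ratio of 0.29 (counting 0.26 to 0.32, widened 0.01 to 0.56), with a median of 0.31. With library totals the widened interval began at -0.13 and held 0. Of the 37, 12 were past the fold upwards and 2 downwards, to be read beside the 23.3% and 21.6% of all genes. *Pcna*, the sliding clamp, had 1381 against 1896 reads, for a ratio of -0.27 (widened -1.30 to 0.65). The helicase subunits *Mcm3* and *Mcm6* had 1777 against 1140 and 1066 against 645 reads, ratios of 0.83 (widened -0.19 to 1.92) and 0.91 (widened -0.49 to 2.36). *Pola1*, the catalytic subunit of DNA polymerase alpha, had 411 against 678 and -0.53 (widened -2.45 to 1.30). *Rrm2*, named after its value was seen, had 655 against 112 reads and 2.73 (widened 0.29 to 8.66). Of the 37, 5 had 0 reads in Cd11c-lineage and 0 genes had none in Cd11c-active, beside 10.6% and 10.7% of all genes.

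Genes of mitosis had 14796 against 11374 reads over 22 genes, a log2 ratio of 0.57 (counting 0.53 to 0.60, widened 0.24 to 0.89), with a median of 0.75. Past the fold were 7 of 22 upwards and 1 downwards, beside 23.3% and 21.6% of all genes. With library totals 4 of 22 were past it upwards, beside 21.6% of all genes under the same scaling. *Mki67* and *Top2a*, markers of cycling cells, had 3543 against 3198 and 2823 against 2198 reads, ratios of 0.33 (widened -0.33 to 0.98) and 0.55 (widened -0.20 to 1.34). The checkpoint kinase-like *Bub1b* was the highest with at least 1000 reads at 1.11 (731 against 385, widened -0.70 to 2.96), and *Cenpf* the lowest at -0.14 (727 against 911). The widened intervals of both the replication and the mitosis sums lay below that of the sum of all 45 histone genes. That of H1 (0.42 to 1.51) overlapped both. Over the core histone genes with reads in both libraries it was 0.86 to 2.44, which overlapped that of mitosis.

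All 10 microglial markers were measured in both libraries, with 22770 against 21211 CPM and a ratio of 0.10. Of 10 progenitor and Muller glia markers 8 were listed, with 213 against 246 CPM and a ratio of -0.21 (widened -0.90 to 0.49), with *Sox2* among those at 0 in Cd11c-active and *Rlbp1* at 0 in Cd11c-lineage. Of 14 neuronal markers 10 were listed, with 113 against 209 CPM and a ratio of -0.89 (widened -1.86 to -0.07), *Pdc* at 0 in Cd11c-active. Of 5 erythroid markers *Hbb-bt* was listed, with 0 against 31 reads. *Rn18s*, the ribosomal RNA that depletion is meant to remove, had 1109005 against 380643 reads. Its ratio was 1.73 (widened 1.68 to 1.78), beside 1.65 for the sum of the 45 histone genes. Whether this difference between the libraries has a part in the histone result was not tested. *Itgax* itself had 2409 against 1698 reads and a ratio of 0.69 (widened -0.15 to 1.58).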

How the data were processed

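Bulk RNA sequencing gave 1 library for each of 2 sorted populations. The authors deposited raw counts per gene, per the file headers, as whole numbers. The deposited log2 fold change was used only where named, and the deposited log2 average of CPM was not used. Per the submitters' processing notes, cutadapt 3.5, STAR 2.7.9a, featureCounts 1.6.3, edgeR 4.0.16 and the GRCm39 build were used. The strand setting and the handling of reads with several places are not given in the sources used here, so reads of overlapping or near-identical genes may have been shared or dropped. Every listed gene had at least 6 reads in all.

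Counts were scaled with TMM in edgeR 4.0.16 (R 4.3.3); factors were 0.954 (Cd11c-active) and 1.05 (Cd11c-lineage). Ratios took reads plus 0.5 on the log2 scale, with exact Clopper-Pearson 95% intervals, on genes with at least 20 reads. With 1 library a group no model of edgeR or DESeq2 could be fitted, so a gene was called past the fold at an absolute log2 ratio of at least 1. Intervals and limits cover counting error only, since PCR copies of a molecule cannot be told apart without molecular identifiers; the widened ones use the spread of the 1978 genes with 800 to 1599 reads. The ratios and intervals were checked on simulated reads scaled by library totals, without TMM. DESeq2 1.42.0 gave alternative size factors. Python 3.11.15, numpy 2.4.6, scipy 1.17.1, pandas 2.3.3, statsmodels 0.14.6 and matplotlib 3.10.9 were used.

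Transcript models came from GENCODE M21 (GRCm38), and promoters from RefSeq (GRCm38.p6), read by name and not by coordinates of the files. The members and gene lists were chosen with earlier results of these data known. Named genes were, in each class, the 3 with the most reads, those with at least 1000 reads past the fold, and those with at least 400 reads against 0. In other lists they were the 2 with the most reads and the highest and lowest ratio from 1000 reads. Others are named as counts or exceptions after their values were seen. Per length comparisons between genes were not made. There were 8 planned and 3 added alternatives. The value of 1 further marker gene is not reported here.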

Additional observations from a re-analysis of the deposited data

How the results depend on the processing

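The sums of the 45 genes and of each class were recomputed under 3 other scalings, without the gene with the most reads and over genes with reads in both libraries, and each stayed higher in Cd11c-active. Under library totals the log2 ratio was 1.52 for all members, 0.80 for H1 and 2.03 for H2B, 4 mitosis genes were past the fold upwards, and the chaperone median reversed to -0.13. At a minimum of 200 reads, where 14.1% of 8951 genes were past the fold upwards and 12.2% downwards, 17 of 22 members were past it upwards and 0 downwards. So were 0 of 13 processing genes in either direction, 2 of 8 variants upwards and 0 downwards, 4 of 26 replication genes upwards and 1 downwards, and 1 of 17 chaperones upwards, and the chaperone median reversed to -0.042. Without the gene with the most reads the sums gave 1.96 for all members, 1.18 for H1, 2.87 for H2A, 2.48 for H2B, 2.77 for H3 and 2.98 for H4. Over genes with reads in both libraries, which leaves out those at 0, they gave 1.18, and 1.39, 1.11, 0.96 and 2.74 for H2A, H2B, H3 and H4. DESeq2 size factors and TMM without ribosomal, mitochondrial, 7SK and 7SL genes moved none of the sums, counts and medians out of its interval or count range. No minimum of reads and a prior of 5 reads, run on counts and medians but not on sums, did not either. The prior of 5 reads lowered the fitted ratios of 5 named genes with 0 reads in Cd11c-lineage.

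Widened intervals above 0 fell from 7 members to 5 under library totals, run after the data were seen, and stayed at 7 under the other scalings. Of the alternatives added after the data were seen, the 26 genes with at least 50% of unique words gave a sum of 1.39. Among those with at least 20 reads, all but *H2bc14*, 19 were past the fold upwards and 1 downwards (23.3% and 21.6% of all genes). Leaving out H1 gave a sum of 2.59, and adding *H2aw*, *H2bu2* and *H4f16* gave 36 members past the fold upwards and 3 downwards. The core sum over genes with reads in both libraries was 1.64. No paired analysis was possible because each group had 1 library.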

Other observations

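Histone genes outside the name pattern were few and of mixed direction. *H4f16*, which encodes an H4 protein outside the numbered series, had 89 against 14 reads, a log2 ratio of 2.81. *H2aw* had 87 against 143 reads and -0.53 (widened -6.70 to 3.45). *H2bu2* had 0 against 49 reads. The widened interval of each held 0.

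The class order of the gaps was H2A, H4, H2B, H3 and H1, at 3.61, 3.15, 2.17, 1.92 and 0.94 on the log2 scale. The widened intervals of the 4 core classes overlapped each other, so their order is not resolved. Those of H2A and H4 did not overlap that of H1, whereas those of H2B and H3 did. Over genes with reads in both libraries the H2A sum was 1.39, inside the widened interval of H1 (0.42 to 1.51), and the H4 sum 2.74. Genes whose models end at the coding part gave a summed ratio of 3.13 over 11 genes, with 6 at 0 reads in Cd11c-lineage. Genes whose models go past it gave 1.42 over 34 genes, with 15 at 0.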
